A study of Mus musculus with 2 samples.

Results

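The genes examined here were the TGF-β ligands, their receptors and the latency proteins, most of which hold the ligands in the matrix, 10 genes chosen by symbol. All 10 were found among the 24532 genes of the count table, and all had a listed TPM. The ligands were *Tgfb1*, *Tgfb2* and *Tgfb3*, the receptors were *Tgfbr1*, *Tgfbr2* and *Tgfbr3*, and the latency proteins were *Ltbp1*, *Ltbp2*, *Ltbp3* and *Ltbp4*. Their RNA was measured in cardiac myofibroblasts of C57BL/6 mice, the matrix-producing cells of the injured heart, taken 3 days after myocardial infarction (MI) as the CD45-negative fraction of the attached cells. The cells were grown in DMEM with serum and transfected with 12.5 nM of a control siRNA (siCtrl) or of an siRNA against *Vgll3* (si*Vgll3*), a transcription cofactor of the vestigial-like family, and mRNA was sequenced after 72 h. The study asked what the loss of *Vgll3* changes in these cells. There was 1 library per condition, so no difference below has a replicate check, no p-value is given, and the effect of the knockdown and any other difference between the 2 cultures cannot be told apart.

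TGF-β is the main secreted signal that turns fibroblasts into myofibroblasts. Each ligand is made as a precursor that is cut by furin-type proteases, and the cut propeptide stays wrapped around the mature ligand and keeps it silent. Latent TGF-β binding proteins tie this complex to fibrillin and fibronectin in the matrix, from which integrins, thrombospondin and proteases release it. The freed ligand binds the type II receptor, which activates the type I receptor, and the latter phosphorylates SMAD2 and SMAD3.

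Reads on genes totalled 140815237 for siCtrl and 125789276 for si*Vgll3*. From the deposited TPM, a level scaled for gene length and library size, M was obtained as log2 of the TPM under si*Vgll3* over that under siCtrl, and A as the log2 of the mean TPM. The study's thresholds for a lower gene, M < −0.5 with A > 0, were used here, and mirrored for a higher gene. How the study computed A is not given in the sources used here, so its A may differ. With the present A the rule gave 1341 lower genes, and with A as the mean of the log2 TPM it gave 1313. Square brackets after M give its 95% Clopper-Pearson interval, computed on the read counts. Such an interval covers counting error only and compares the 2 libraries, not the conditions. *Vgll3* itself was at 202 TPM with siCtrl against 84.0 TPM with si*Vgll3*, so that 41.6% of its control level was left.

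Of the 10 genes, 4 were lower in si*Vgll3* under this rule and 0 were higher. Among all 11754 genes with A > 0, the same rule gave 11.4% lower and 5.73% higher genes. The lower genes were *Tgfb3*, *Ltbp3*, *Tgfb2* and *Ltbp2*, whereas no receptor was past the threshold. The median M of the 10 genes was −0.26, against −0.05 over all genes with A > 0. In all, 9 of the 10 had M below 0, against 57.0% of all genes with A > 0. For these 9 the whole interval also lay below 0, which was not counted over all genes. The exception was *Ltbp1*, whose interval lay above 0. In such bulk RNA, a change in the share of cells that express a gene and a change in RNA per cell cannot be told apart.

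**Figure D1:**
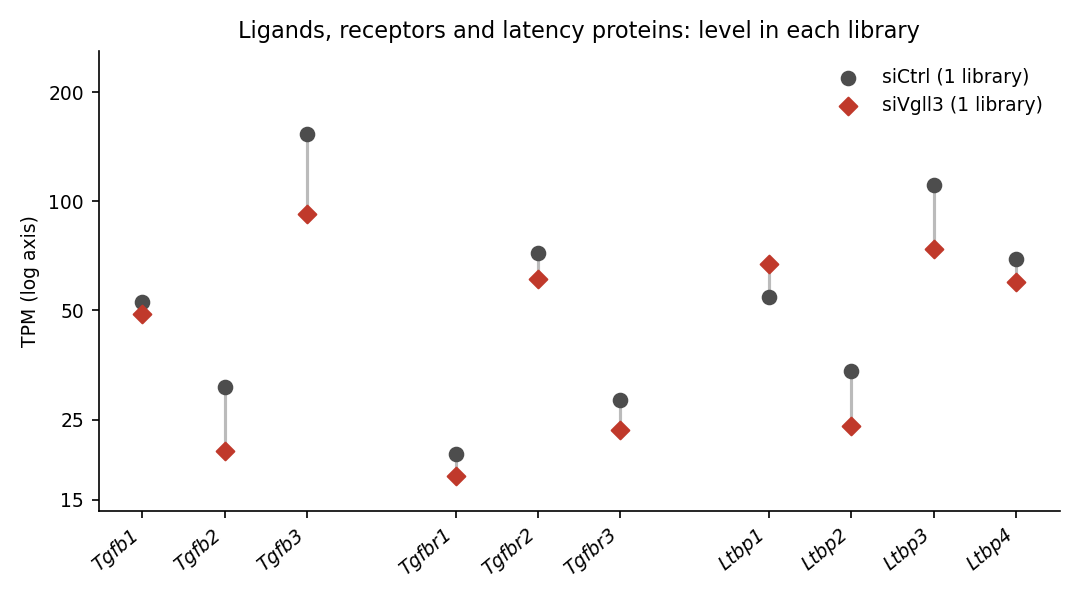
TPM on a log axis for each ligand, receptor and latency protein, with a grey circle for the siCtrl library and a red diamond for the si*Vgll3* library, joined by a line. The circle lies above the diamond for every gene except *Ltbp1*, and the longest lines are those of *Tgfb3*, *Ltbp3*, *Tgfb2* and *Ltbp2*.

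Depth did not limit these genes. Each had between 5916 and 36768 reads in each library, and the widest interval reached 0.05 on either side of its M. Their levels lay between the 48.3rd and the 88.4th percentile of A among all genes with A > 0.

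The ligands were not equally abundant. In siCtrl *Tgfb3* was the most abundant at 153 TPM, followed by *Tgfb1* at 52.8 TPM and *Tgfb2* at 30.7 TPM. Thus *Tgfb3* made up 64.7% of the summed ligand TPM in siCtrl, *Tgfb1* 22.3% and *Tgfb2* 13.0%.

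*Tgfb3* (NCBI gene 21809) lies on the minus strand of chromosome 12 of mm10, from 86056743 to 86079041. It encodes the TGF-β3 precursor, a ligand known for its part in palate closure and in wound repair. It had 33120 reads with siCtrl against 18490 with si*Vgll3*, and its TPM went from 153 to 92.4. Its M of −0.73 [−0.76, −0.70] was the lowest of the 10 genes, with 60.3% of the siCtrl level left, and only 6.08% of all genes with A > 0 had a lower M.

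*Tgfb2* (NCBI gene 21808) lies on the minus strand of chromosome 1, from 186622787 to 186709697. TGF-β2, which is needed for heart and valve development, depends on the coreceptor betaglycan for efficient binding to the type II receptor. The gene had 10060 reads with siCtrl against 6227 with si*Vgll3*, which made 30.7 TPM against 20.5 TPM. The M was −0.58 [−0.63, −0.54], with 66.8% of the siCtrl level left. The whole interval of both *Tgfb2* and *Tgfb3* lay below −0.5.

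*Tgfb1* (NCBI gene 21803) lies on the plus strand of chromosome 7, from 25687002 to 25705077. TGF-β1 is the ligand most often linked with fibrosis. It had 7329 reads with siCtrl against 6277 with si*Vgll3*, or 52.8 TPM and 48.8 TPM. This gave an M of −0.11 [−0.16, −0.06], with 92.5% of the siCtrl level left, so it was not called.

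The ligands differed from each other by more than counting error in all 3 pairs. The M of *Tgfb3* was below that of *Tgfb1* by a difference of −0.62 (95% Wald interval −0.67 to −0.56), and that of *Tgfb2* was below that of *Tgfb1* by a difference of −0.47 (−0.54 to −0.40). *Tgfb3* and *Tgfb2* were closer, with a difference in M of −0.15 (−0.20 to −0.10). Summed TPM of the ligands went from 237 in siCtrl to 162 in si*Vgll3*, or 68.4% of the control sum. The share of *Tgfb1* in that sum was 30.2% in si*Vgll3* and that of *Tgfb3* was 57.1%, while the share of *Tgfb2* hardly differed, at 12.7%.

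**Figure D2:**
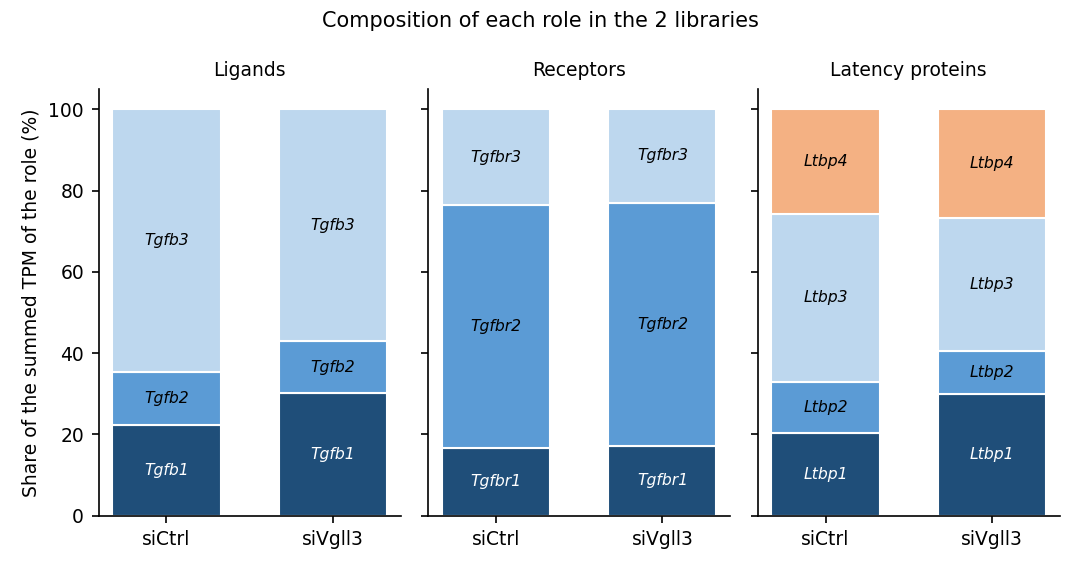
Stacked bars give the share in percent of each gene in the summed TPM of the ligands, of the receptors and of the latency proteins, for the siCtrl and the si*Vgll3* library. The blocks of *Tgfb1* and *Ltbp1* are larger in si*Vgll3*, at 30.2% and 29.9%, while those of the receptors are nearly equal in both libraries.

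All receptors had M between −0.28 and −0.21, and none was called. *Tgfbr2* (NCBI gene 21813, chromosome 9, 116087695 to 116175363, minus strand) encodes the type II receptor kinase that binds the ligand first. It was the most abundant receptor, with 72.1 TPM with siCtrl against 61.0 TPM with si*Vgll3*, giving an M of −0.24 [−0.27, −0.21]. *Tgfbr3* (NCBI gene 21814, chromosome 5, 107106567 to 107289629, minus strand) encodes betaglycan, which presents the ligands and has no kinase of its own. It was at 28.3 TPM with siCtrl against 23.4 TPM with si*Vgll3*, giving an M of −0.28 [−0.32, −0.24]. *Tgfbr1* (NCBI gene 21812, chromosome 4, 47353222 to 47414926, plus strand) encodes the type I receptor kinase ALK5. It was the least abundant of the 10 genes, at 20.1 TPM with siCtrl against 17.4 TPM with si*Vgll3*, giving an M of −0.21 [−0.26, −0.16].

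The receptors thus kept nearly the same proportions in the 2 libraries. The TPM ratio of *Tgfbr1* to *Tgfbr2* was 0.279 in siCtrl and 0.286 in si*Vgll3*, and the ratio of *Tgfbr2* to *Tgfbr3* was 2.55 and 2.61. For the pair *Tgfbr2* and *Tgfbr1* the interval of the difference in M ran from −0.09 to 0.03, and for *Tgfbr3* and *Tgfbr2* from −0.09 to 0.01. *Tgfbr3* and *Tgfbr1* differed by −0.07 (−0.13 to −0.004), which is just beyond counting error. Receptor TPM summed to 121 with siCtrl and to 102 with si*Vgll3*, or 84.5% of the control sum. The ratio of summed ligand TPM to summed receptor TPM was 1.96 with siCtrl against 1.59 with si*Vgll3*.

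The latency proteins went both ways. *Ltbp3* was the most abundant of them in siCtrl, and *Ltbp1* was the only gene of the 10 that was higher in si*Vgll3* than in siCtrl. LTBP1, LTBP3 and LTBP4 bind the latent ligand complex covalently, whereas LTBP2 does not bind it and is known as a microfibril protein.

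*Ltbp3* (NCBI gene 16998) lies on the plus strand of chromosome 19, from 5740900 to 5758536. It had 36768 reads with siCtrl against 22573 with si*Vgll3*, and no other of the 10 genes had as many in siCtrl. This made 111 TPM against 73.6 TPM and an M of −0.59 [−0.62, −0.57], which is 66.3% of the control level. The M of *Ltbp3* and that of *Tgfb2* did not differ beyond counting error, with a difference of −0.01 (−0.06 to 0.04).

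*Ltbp2* (NCBI gene 16997) lies on the minus strand of chromosome 12, from 84783212 to 84876558. It had 14361 reads with siCtrl against 9336 with si*Vgll3*, which made 34.1 TPM against 23.9 TPM. The M was −0.51 [−0.55, −0.47], so the interval held the threshold of −0.5. The call of *Ltbp2* did not hold on other scales, since its M was −0.46 with CPM (counts scaled by library total), −0.47 with TMM scaling and −0.46 when centred on the median of all genes with A > 0.

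*Ltbp4* (NCBI gene 108075) lies on the minus strand of chromosome 7, from 27305140 to 27339720. LTBP4 is known for its role in elastic fibre assembly. It was at 69.1 TPM with siCtrl against 59.9 TPM with si*Vgll3*, giving an M of −0.21 [−0.23, −0.18]. This value did not differ beyond counting error from that of *Tgfbr1*, the interval of the difference running from −0.06 to 0.05.

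*Ltbp1* (NCBI gene 268977) lies on the plus strand of chromosome 17, from 75005480 to 75392512, where the deposited table lists 7 RefSeq transcripts for it. It had 22410 reads with siCtrl against 25446 with si*Vgll3*, although the latter library was the shallower one. This made 54.3 TPM against 67.1 TPM and an M of 0.31 [0.28, 0.33], or 124% of the siCtrl level. This did not reach the threshold of 0.5, and 88.6% of all genes with A > 0 had a lower M.

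The latency proteins differed from one another in M by more than counting error in all 6 pairs. The widest gap was between *Ltbp3* and *Ltbp1*, with a difference of −0.90 (−0.93 to −0.86). The TPM ratio of *Ltbp1* to *Ltbp3* was 0.489 in siCtrl and 0.912 in si*Vgll3*. The share of *Ltbp1* in the summed latency protein TPM was 20.2% and 29.9%, and that of *Ltbp3* was 41.3% and 32.8%, in the same order of libraries. Latency protein TPM, with *Ltbp2* included, summed to 268 with siCtrl and to 225 with si*Vgll3*. The ratio of this sum to the summed ligand TPM was 1.13 and 1.39.

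**Figure D3:**
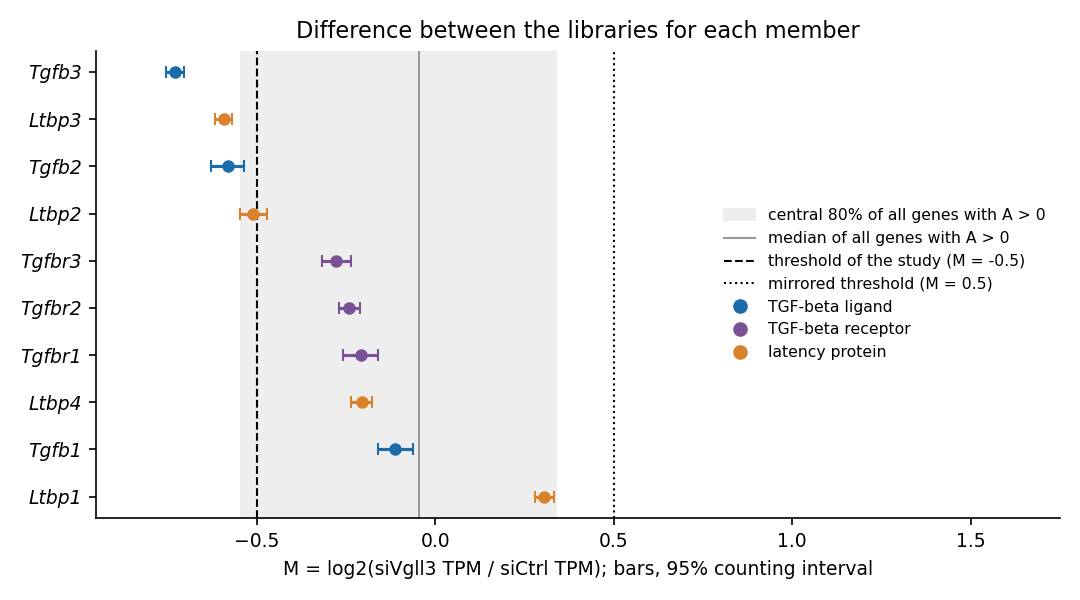
M of each gene with its 95% counting interval, coloured by role, over the central 80% of all genes with A > 0 (grey band) and their median (grey line), with dashed and dotted lines at −0.5 and 0.5. *Tgfb3*, *Ltbp3* and *Tgfb2* lie wholly below the dashed line, the interval of *Ltbp2* holds it, and the receptors cluster between −0.28 and −0.21.

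Ordered by M, the 10 genes ran from *Tgfb3* through *Ltbp3*, *Tgfb2* and *Ltbp2* to *Tgfbr3*, *Tgfbr2*, *Tgfbr1*, *Ltbp4*, *Tgfb1* and *Ltbp1*. Of the 9 neighbouring pairs in this order, 4 did not differ beyond counting error. These were *Ltbp3* with *Tgfb2*, *Tgfbr3* with *Tgfbr2*, *Tgfbr2* with *Tgfbr1*, and *Tgfbr1* with *Ltbp4*. The step from *Ltbp2* to *Tgfbr3*, between the called genes and the rest, was −0.23 (−0.29 to −0.18). That from *Tgfb1* to *Ltbp1* was larger, at −0.42 (−0.47 to −0.36). As the genes were sorted by M, the sign of each step was fixed in advance.

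**Figure D4:**
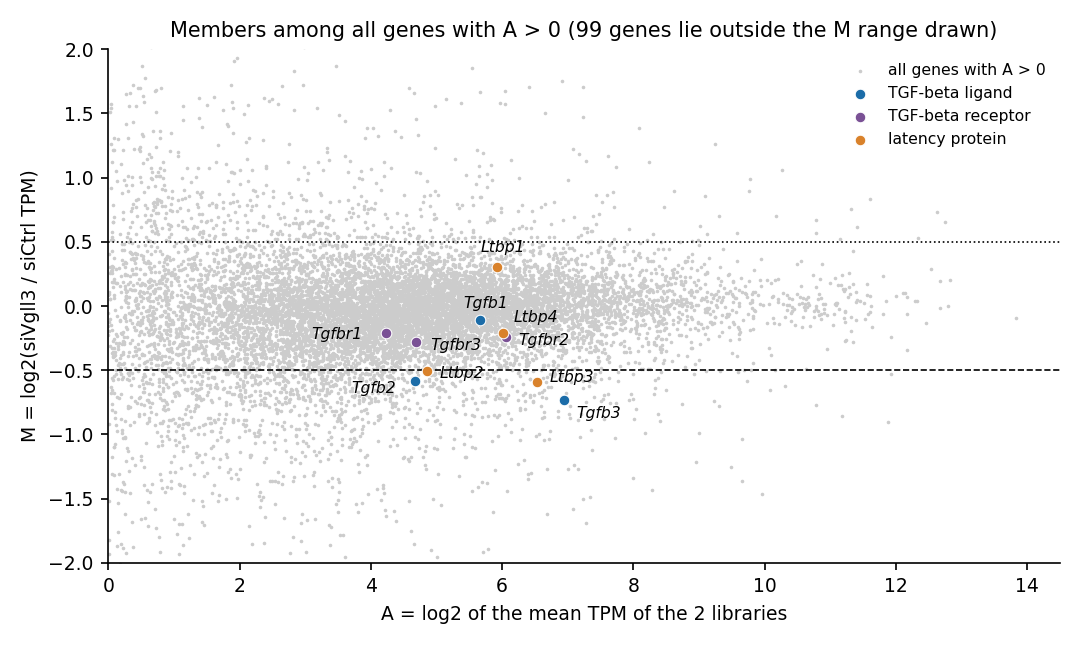
M against A for all 11754 genes with A > 0 (grey points, of which 99 lie outside the range of M drawn), with the 10 genes coloured by role and lines at M of −0.5 and 0.5. *Tgfb3* and *Ltbp3*, which are among the more abundant of the 10, lie below the lower line, and *Ltbp1* lies above 0.

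The read counts and TPM gave nearly the same differences. M from CPM minus M from TPM was between 0.04 and 0.06 for all 10 genes, against a median of 0.05 and a central 95% of 0.02 to 0.08 over all genes with A > 0. *Ltbp1* had the smallest gap of the 10, at 0.04, and *Ltbp4*, with 3 RefSeq transcripts in that table, the largest.

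In the annotation, exons of 5 of the 10 genes overlap exons of another gene, and the 4 called genes are among them. The library kit kept strand, but whether the counting used it is not given in the sources used here, so part of these reads is of uncertain origin. The opposite-strand RNA *D030025P21Rik* at *Ltbp2* had 93 reads with siCtrl against 118 with si*Vgll3*. The genes whose exons overlap *Tgfb3* (*Gm37804* and *Gm48008*), *Tgfb2* (*Gm29491*) and *Tgfbr3* (*Gm43422*) were not analysed here.

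Since VGLL proteins act with TEAD factors and TGF-β signals through SMADs, the start regions of the genes were searched for the letters CATTCC (TEAD-type) and GTCTG (SMAD-type) on both strands. RefSeq gave 12 such regions for 8 of the genes on GRCm38.p6, from 250 bases before to 50 bases after a transcript start, and *Tgfb3* and *Tgfbr3* were not among them. CATTCC was in 0 of the 12 regions, and it was in 14.7% of all 32851 regions of this length and in 12.1% of those of genes with A > 0. GTCTG was in 7 of the 12 regions, belonging to 6 genes, against 49.6% of all regions and 46.9% of those of genes with A > 0. A match of so few letters is a description and not a binding site, and a missing match says only that these letters are not in the window.

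The regions of the lower genes *Tgfb2* (chr1:186705940-186706239, minus strand), *Ltbp2* (chr12:84876442-84876741, minus strand) and *Ltbp3* (chr19:5740650-5740949, plus strand) are shown with the first region of *Ltbp1* (chr17:75005279-75005578, plus strand), the gene that differed in the other direction. They are written 5′ to 3′ on the strand of the gene, with GTCTG or its reverse complement CAGAC in capitals. *Ltbp2* holds 3 matches, *Ltbp3* and *Tgfb2* hold 2 each, and this region of *Ltbp1* holds 1.
Tgfb2: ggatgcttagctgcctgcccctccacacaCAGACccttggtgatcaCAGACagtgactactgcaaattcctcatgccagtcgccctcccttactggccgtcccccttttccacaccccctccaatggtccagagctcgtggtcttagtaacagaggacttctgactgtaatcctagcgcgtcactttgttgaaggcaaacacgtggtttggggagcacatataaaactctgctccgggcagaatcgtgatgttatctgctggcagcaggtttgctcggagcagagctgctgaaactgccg
Ltbp2: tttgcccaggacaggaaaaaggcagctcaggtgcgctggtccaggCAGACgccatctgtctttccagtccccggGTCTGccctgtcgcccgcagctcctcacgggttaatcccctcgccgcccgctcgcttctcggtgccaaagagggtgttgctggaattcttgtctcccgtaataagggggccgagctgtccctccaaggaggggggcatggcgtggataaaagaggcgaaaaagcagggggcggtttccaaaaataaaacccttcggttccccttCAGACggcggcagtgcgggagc
Ltbp3: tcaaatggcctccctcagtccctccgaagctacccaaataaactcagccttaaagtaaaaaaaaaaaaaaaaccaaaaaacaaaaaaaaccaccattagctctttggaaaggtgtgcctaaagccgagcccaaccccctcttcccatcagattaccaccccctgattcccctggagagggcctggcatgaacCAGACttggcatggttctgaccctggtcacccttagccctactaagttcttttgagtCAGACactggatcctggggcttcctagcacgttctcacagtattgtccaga
Ltbp1: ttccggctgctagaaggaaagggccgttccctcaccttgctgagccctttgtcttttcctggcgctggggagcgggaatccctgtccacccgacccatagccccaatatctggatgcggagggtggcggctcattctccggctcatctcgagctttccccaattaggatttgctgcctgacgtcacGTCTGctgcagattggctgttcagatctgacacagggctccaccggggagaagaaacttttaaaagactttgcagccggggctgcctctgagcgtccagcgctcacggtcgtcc

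The second RefSeq region of *Ltbp1*, at chr17:75178531-75178830, holds 2 matches of GTCTG. The matches in *Tgfb2* begin at positions −221 and −204 relative to the start that its region is built on, and those in *Ltbp3* at −58 and −1. The region of *Tgfb2* lies inside the gene, whose 5′ end is at 186709697, and the bases at that end were not searched. The same holds for *Ltbp4*, whose 5′ end is at 27339720. The region of *Tgfb1* holds none and is 77.0% G and C.

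The study also dealt with miR-29b, a small RNA of a family with a common seed, and the 3′ UTRs of the 10 genes were searched for its target letters. The mature sequences are given from RefSeq, with the seed, bases 2 to 8, in capitals.
miR-29a-3p: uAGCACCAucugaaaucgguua
miR-29b-3p: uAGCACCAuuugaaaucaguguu
miR-29c-3p: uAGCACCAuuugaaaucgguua

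The reverse complement of this seed, TGGTGCT, was in the 3′ UTR of 0 of the 10 genes, taken from the GENCODE vM21 transcript with the longest coding sequence. It was in 14.2% of the 11169 genes with A > 0 and a 3′ UTR. The searched UTRs ran from 135 bases in *Tgfb1* to 6085 bases in *Tgfbr2*, and other transcripts of these genes were not searched. Levels of miR-29 were not measured in these libraries of polyadenylated RNA.

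Other genes of the pathway were taken from 4 lists ordered by role. The first holds genes that store, anchor or activate latent TGF-β, and 25 of its 29 genes had A > 0. Of these 25 genes, 10 were lower (40%) and 3 were higher (12%), against 11.4% and 5.73% of all genes with A > 0, and the median M was −0.37. *Fmod*, a small proteoglycan that binds TGF-β in the matrix, was the lowest, at 40.5 TPM with siCtrl against 4.69 TPM with si*Vgll3*, giving an M of −3.11 with 11.6% of the siCtrl level left. *Fbn2*, a fibrillin, was next with an M of −1.54 [−1.62, −1.47].

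Also lower were *Fbn1* and *Emilin1*, both chosen after their values were seen. *Fbn1*, the main fibrillin of adult tissue, was at 651 TPM with siCtrl against 457 TPM with si*Vgll3*, giving an M of −0.51 [−0.52, −0.50], which was −0.46 on the CPM scale and then not called. *Emilin1*, which restrains processing of the TGF-β precursor, was at 384 TPM with siCtrl against 194 TPM with si*Vgll3*, giving an M of −0.99 [−1.01, −0.97]. The rest of the lower genes were *Aspn*, *Tgm2*, the integrin gene *Itgb3* and the protease genes *Mmp2*, *Mmp14* and *Pcsk6*. Their M was −1.46, −1.10, −0.74, −0.71, −0.66 and −0.64, in this order, and they too were named after their values were seen. The most abundant genes of the list, *Bgn* and *Fn1*, had M of −0.34 and 0.04 and were not called.

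The 3 higher genes of this list were *Lrrc32*, *Htra1* and *Thbs1*. *Lrrc32* encodes GARP, a membrane protein that anchors latent TGF-β on the cell surface in place of a latency protein. It was at 122 TPM with siCtrl against 222 TPM with si*Vgll3*, giving an M of 0.87 [0.85, 0.89]. *Htra1*, a secreted protease that can act on TGF-β family proteins, was at 133 TPM and 234 TPM, an M of 0.81 [0.79, 0.84]. *Thbs1*, an activator of latent TGF-β, named after its value was seen, was at 1425 TPM and 2119 TPM, an M of 0.57 [0.57, 0.58].

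Among coreceptors and receptor regulators, 22 of 23 genes had A > 0, of which 3 were lower and 0 were higher, with a median M of 0.07. The lower genes made up 13.6%, near the 11.4% of all genes with A > 0. *Nrp2*, a coreceptor of several secreted ligands, was lowest with 26.4 TPM with siCtrl against 13.7 TPM with si*Vgll3*, giving an M of −0.94 [−0.99, −0.89]. *Acvrl1*, the type I receptor ALK1, had an M of −0.53 [−0.55, −0.50], and *Zfyve9*, the SMAD anchor SARA, named after its value was seen, had −0.52 [−0.58, −0.45]. On the CPM scale only *Nrp2* was called. *Fkbp1a*, which binds the type I receptor and holds it inactive, was the most abundant at 668 TPM in siCtrl and had an M of 0.10. *Strap* had an M of 0.35 and *Usp11*, a deubiquitinase, had 0.37.

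SMADs and their nuclear partners had the narrowest range of M of the 4 lists. Of the 14 genes, 13 had A > 0, 0 were lower and 0 were higher, and M ran from −0.33 for the coactivator gene *Crebbp* to 0.48 for *Trim33*, a ubiquitin ligase for SMAD4. With CPM in place of TPM, *Trim33* passed the upper threshold. *Smad7*, the inhibitory SMAD that TGF-β itself induces, was at 34.0 TPM with siCtrl against 40.6 TPM with si*Vgll3*, giving an M of 0.25 [0.21, 0.29]. The repressor genes *Ski* and *Tgif1* had M of −0.23 and 0.23.

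**Figure D5:**
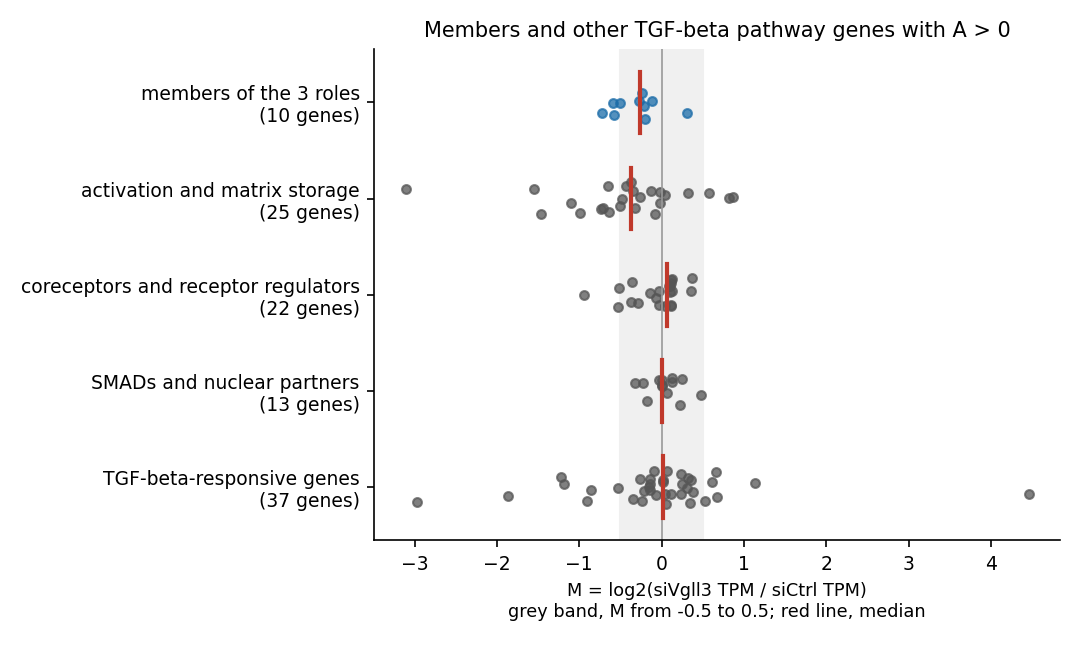
M of the 10 genes (blue) and of the other pathway genes with A > 0 (grey), 1 point per gene, with the median of each row in red and a grey band from −0.5 to 0.5. The points of the SMAD list all lie in the band, whereas the activation list and the TGF-β-responsive list reach −3.11 and 4.46.

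Genes known to respond to TGF-β in fibroblasts numbered 37, all with A > 0. Of these, 7 were lower and 6 were higher, or 18.9% and 16.2% against 11.4% and 5.73% of all genes with A > 0, and the median M was 0.02. At the low end were *Eln*, the elastin gene, from 43.3 TPM to 5.55 TPM with an M of −2.96 [−3.05, −2.88], and *Itga11*, a collagen-binding integrin, with −1.86 [−1.95, −1.78]. At the high end, *Il11*, a cytokine of fibrosis, had an M of 4.46 [4.20, 4.73] and *Cnn1*, a smooth-muscle calponin, had 1.13 [1.09, 1.18]. *Timp1*, *Inhba* and *Tagln*, named after their values were seen, were also higher, with M of 0.67, 0.66 and 0.52. Of the genes named from the pathway lists, *Acvrl1*, *Eln*, *Fbn1*, *Fbn2*, *Fn1*, *Tagln*, *Thbs1* and *Zfyve9* have exons that overlap those of a gene on the opposite strand. *Aspn*, *Tgm2*, *Itgb3*, *Mmp2*, *Mmp14* and *Pcsk6* were not checked for such overlaps.

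The cells expressed the markers of the labelled type in both libraries, with all 10 fibroblast and myofibroblast genes at A > 0. Of these 10, 4 were lower (40%) and 2 were higher (20%), against 11.4% and 5.73% of all genes with A > 0. The lower genes were *Postn*, *Col1a1*, *Tcf21* and *Col1a2*, with M of −1.22, −0.90, −0.58 and −0.53. The higher genes were *Thy1* and *S100a4*, with M of 0.72 and 0.53. *Acta2* was at 3296 TPM with siCtrl against 3866 TPM with si*Vgll3*, and *Tcf21* was at 192 and 128 TPM. Of 12 leukocyte markers, 6 had 0 reads in both libraries, *Ptprc* (CD45) among them, where a count of 0 allows up to 3 reads. The leukocyte list summed to 15.8 TPM with siCtrl against 14.4 TPM with si*Vgll3*, but of its 5 genes with A > 0, 3 were higher and 1 was lower. *Cd53* had 136 reads with siCtrl against 979 with si*Vgll3*, an M of 2.96, and *Cd14* and *Csf1r* had M of 0.62 and 0.50, while *Lyz2* had 738 reads against 196, an M of −1.80. Endothelial markers summed to 28.2 and 23.5 TPM, with none of the 8 at 0 reads in both. Of the 4 endothelial genes with A > 0, *Tek* was lower, at 19.5 and 13.4 TPM, and no other was called, *Pecam1* and *Cdh5* having M of 0.47 and 0.50, and the median M of the 4 was 0.22. Of 8 cardiomyocyte markers, 6 had 0 reads in both libraries, and *Tnnt2* was at 60.0 TPM with siCtrl against 10.4 TPM with si*Vgll3*. Mural cell markers summed to 243 TPM with siCtrl against 145 TPM with si*Vgll3*, most of it *Pdgfrb*, which fibroblasts also express, at 227 and 136 TPM. The 2 mural genes with A > 0, *Pdgfrb* and *Notch3*, were lower, with M of −0.74 and −0.82. The part of such differences in the values of the ligands, receptors and latency proteins was not tested.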

How the data were processed

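Each siRNA gave 1 mRNA library from cultured cardiac myofibroblasts. Per the labels and the study's methods, the authors made libraries with a stranded mRNA kit, trimmed reads with Trimmomatic and mapped them to mm10 with HISAT2, and StringTie gave values for known genes. Tool versions and the annotation release are not given in the sources used here. The authors deposited raw read counts per gene, without normalization, and TPM per gene, scaled for length and library size. The authors' FPKM were not analysed here.

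M, A and the counting intervals were computed with Python 3.11.15 and scipy 1.17.1. Nothing was added before the logarithm. With 1 library per condition no test between conditions was possible, and p-values, edgeR and DESeq2 models were not used. TMM factors came from edgeR 4.0.16 and size factors from DESeq2 1.42.0, for alternatives only. Differences in M between genes have Wald intervals from the 4 read counts. The interval was tried on simulated data for si*Vgll3* against siCtrl over 11754 genes and held the true value for 95.2% of them. These counts were drawn with Poisson error alone, which the interval assumes, so this checks only its computation. The shift onto the TPM ratio and the Wald intervals were not part of the simulation. At this depth counting error is small, but it is not the error between cultures.

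The genes and the lists were chosen with earlier results of these data known. From each pathway list, the text names the 2 genes at either end of M and the 2 of highest mean TPM, provided that A was above 0 and the larger of the read counts was 50 or more. The lists of activation and matrix storage genes, coreceptors and receptor regulators, SMADs and nuclear partners, and TGF-β-responsive genes, and the lists of cell type markers, were written from general knowledge. Positions and promoters came from RefSeq on GRCm38.p6, matched by NCBI gene number, and exons and 3′ UTRs from GENCODE vM21 on GRCm38, the assembly also called mm10. Of the genes with A > 0, 96.5% had a transcript there. The 12 alternatives were CPM, TMM scaling, DESeq2's size factors, 1 or 0.1 TPM added, another definition of A, A > 2, no filter on A, at least 10 reads in each library, centred M, a threshold of 1, and the whole interval beyond 0.5. Protein sequences were not used here. Values of some other genes are not reported here.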

Additional observations from a re-analysis of the deposited data

How the results depend on the processing

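No paired analysis was possible because there was a single library for each siRNA. The number of lower ligand, receptor and latency genes was 4 as reported and stayed within 1.5 times of that under 11 of the 12 alternatives. With a threshold of 1 on M it was 0. *Tgfb3*, *Ltbp3* and *Tgfb2* were called under the other 11, whereas *Ltbp2* was not called under 7 of the 12, and the sign of M of each of the 10 genes was the same under the 6 that can change M. The M of *Vgll3* was −1.21 with CPM, −1.22 with TMM scaling, −1.23 with DESeq2's size factors and −1.22 when centred.

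Each of those 4 settings gave 1 lower gene in place of 3 among the coreceptors and receptor regulators and 1 higher gene in place of 0 among the SMADs and nuclear partners. With the whole interval beyond 0.5 there was 1 lower coreceptor or regulator gene, and 442 higher genes in all. Over all genes, 1341 lower and 674 higher genes became 384 and 207 with a threshold of 1, 2103 and 1428 without a filter on A, and the higher genes became 393 with A > 2, which are changes in the genes tested or in the bar. A threshold of 1 also left 4 lower and 0 higher activation and storage genes, 0 lower coreceptor genes, and 4 lower and 2 higher responsive genes. The M of a single gene can change under 6 of the alternatives (CPM, TMM scaling, DESeq2's size factors, 1 or 0.1 TPM added, and centring). These gave 180 values for genes other than *Vgll3*, of which 105 stayed inside the counting interval, 75 left it and 0 changed the sign of a called M.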

Other observations

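*Lrrc32* was set beside the latency proteins after its value was seen. GARP, the protein it encodes, links covalently to the latent ligand on the cell surface, whereas LTBP1, LTBP3 and LTBP4 do so in the matrix and LTBP2 does not bind it. The TPM of *Lrrc32* was 0.453 of the summed TPM of *Ltbp1* to *Ltbp4* in siCtrl and 0.989 of that sum in si*Vgll3*. Against single latency proteins, the ratio of *Lrrc32* to *Ltbp3* was 1.10 in siCtrl and 3.02 in si*Vgll3*, and that to *Ltbp1* was 2.24 and 3.31. Protein levels were not measured in these libraries.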
